A study of Mus musculus with 65 samples.

Results

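Immediate early genes are switched on within minutes of a stimulus without new protein synthesis, and most encode transcription factors or proteins that end the signal. MAP kinases of the ERK, JNK and p38 families act through serum response factor and CREB at their promoters, the resulting Fos and Jun proteins form the AP-1 complex, and the phosphatase Dusp1 then removes the phosphates that keep these kinases active. In the mammary gland such genes respond to growth factors, hormones, radiation and also to handling of the tissue. The 10 genes described here are Dusp1, Fos, Fosb, Jun, Junb, Egr1, Ier2, Atf3, Zfp36 and Nr4a1. They were taken as every probe set annotated to one of these genes and to no other, which gave 11 probe sets, among 18194 genes measured on the arrays. The list was chosen by the measured level of Dusp1, which was higher in glands taken 4 weeks after irradiation, so values that involve the 4-week glands are descriptions and carry no test for the 10 genes. The question was whether the other 9 genes moved with Dusp1.

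The data were Affymetrix expression arrays from 17 mammary glands and 48 mammary tumours of BALB/c mice. Gland donors were Tgfb1 heterozygous or wild-type littermates, 10 weeks old, injected with estrogen and progesterone 2 days before treatment so that their cycles were aligned. Heterozygous glands comprised 3 arrays from sham-treated mice, 2 arrays 1 week after 10 cGy of ionizing radiation and 3 arrays 4 weeks after 10 cGy, and wild-type glands comprised 3 arrays of each kind. All sham glands date from the 1-week time point, and a difference between 4-week and sham glands therefore also spans the extra time. Tumours grew from p53-null mammary fragments transplanted into fat pads cleared of host epithelium at 3 weeks of age, and the hosts had been irradiated or sham-treated 3 days before transplantation. There were 10 tumours from irradiated and 6 from sham-treated heterozygous hosts, and 23 from irradiated and 9 from sham-treated wild-type hosts. The labels give no dose for the tumour hosts. All tumours share the p53-null donor epithelium, and the Tgfb1 genotype is that of the host, whose vessels, fat and stroma the tumour may hold. For 1 tumour the title says irradiated host and other labels say sham, and the title was followed.

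Tgfb1 itself ran from 3.81 to 4.67 on the log2 scale in the 8 heterozygous glands and from 4.57 to 5.45 in the 9 wild-type glands, and 6 heterozygous glands lay below every wild-type gland. The labelled tissue was borne out by its markers, with luminal epithelial marker means of 10.40 to 11.32 and adipocyte marker means of 11.00 to 11.60 over the glands. Gland arrays differed in admixed tissue. The mean of the skeletal muscle markers was above 8 in 4 wild-type arrays (sham arrays 2 and 3, 1-week array 3 and 4-week array 3) and between 4.41 and 7.70 in the other 13. The mean of the B cell and lymph node markers was 6.35 in heterozygous sham array 1, 7.63 in wild-type 1-week array 1 and 5.91 in wild-type sham array 1. In tumours the luminal marker mean ran from 7.21 to 12.53 and was below 10 in 10 tumours. For some differences of Dusp1, Fos, Egr1 and Junb in glands, the value without the muscle-rich arrays is given beside it or in the closing section. Differences of the other members in glands are not given without them. Correlations with Dusp1 whose sign or call changed without such arrays are in the closing section. Differences between tumour groups were not recomputed without the tumours low in luminal markers.

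The promoters of these genes are known for short regulatory elements. A RefSeq window of 250 bases upstream of an annotated start (mouse build GRCm38.p6) was matched by symbol for 8 of the 10 genes, all but Egr1 and Ier2. The 4 windows printed belong to the genes on which the results turn, and capitals mark the letters TGACG or their reverse complement CGTCA, the core of the cAMP response element through which CREB and ATF proteins act. Dusp1 (chr17:26508473-26508722, minus strand) and Junb (chr8:84978749-84978998, minus strand) are followed by Fos (chr12:85473640-85473889, plus strand) and by Nr4a1 (chr15:101266596-101266845, plus strand), whose window precedes a start inside the annotated gene.
Dusp1: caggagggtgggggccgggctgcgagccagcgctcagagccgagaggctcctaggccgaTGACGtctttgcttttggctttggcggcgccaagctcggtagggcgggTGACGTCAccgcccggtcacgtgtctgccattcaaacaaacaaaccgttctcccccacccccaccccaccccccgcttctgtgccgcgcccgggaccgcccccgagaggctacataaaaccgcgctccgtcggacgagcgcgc
Junb: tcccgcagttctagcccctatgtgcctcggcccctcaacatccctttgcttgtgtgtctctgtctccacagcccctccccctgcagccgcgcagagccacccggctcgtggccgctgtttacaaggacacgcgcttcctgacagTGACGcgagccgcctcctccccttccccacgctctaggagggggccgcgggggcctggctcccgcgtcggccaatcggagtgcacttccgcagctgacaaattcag
Fos: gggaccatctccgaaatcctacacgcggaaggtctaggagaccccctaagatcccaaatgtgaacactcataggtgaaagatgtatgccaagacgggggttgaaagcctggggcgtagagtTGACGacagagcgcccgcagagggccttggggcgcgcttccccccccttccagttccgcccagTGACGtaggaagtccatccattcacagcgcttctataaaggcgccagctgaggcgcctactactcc
Nr4a1: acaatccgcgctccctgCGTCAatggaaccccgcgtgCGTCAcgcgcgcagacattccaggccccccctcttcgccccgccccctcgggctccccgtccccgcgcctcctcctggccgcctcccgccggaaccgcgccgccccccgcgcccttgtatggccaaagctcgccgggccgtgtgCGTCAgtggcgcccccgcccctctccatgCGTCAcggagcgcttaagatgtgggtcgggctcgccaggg
The core was found in 6 of the 8 windows, on either strand, and in 17.8% of all 32851 windows of this length, which belong to 27025 genes. Nr4a1 held 4 copies, Dusp1 held 3, Fos held 2, and Junb, Fosb and Atf3 held 1 each. The full palindrome TGACGTCA was present in Dusp1 alone of the 8, beginning 143 bases upstream of the start, and its 2 overlapping cores are counted in the 3. It occurred in 1.55% of all windows. The Sp1 box GGGCGG was in 7 of the 8 and in 32.7% of all windows, and the TATA box TATAAA was in 1 (Fos) and in 12.4% of all. The CArG box of serum response factor was in 1 of the 8 (Zfp36) and in 1.47% of all, the AP-1 site TGANTCA in 0 of the 8 and in 6.75% of all, and the full palindromic glucocorticoid response element in 0 of the 8 and in 0.00913% of all. A match describes letters in the window and is not evidence of binding. Elements more than 250 bases upstream were not looked for, nor any of Egr1 and Ier2. A window without a match, such as that of Fos for the CArG box, therefore does not show that the gene lacks the element.

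Most of the genes were well above the dim end of the arrays in both tissues. In glands the mean log2 level placed Egr1, a zinc finger factor, at the 96.3rd percentile of all genes, followed by Fos at 91.6, Dusp1 at 87.9, Ier2 at 83.4, Jun at 80.7, Zfp36 at 74.5, Nr4a1 at 63.9, Junb at 59.2 and Atf3 at 51.7. Fosb, a partner of Jun proteins in AP-1, lay at 11.9 in glands and 27.3 in tumours, under the 40th percentile that a gene had to reach to be tested. Thus 9 of the 10 genes were tested for differences between groups in each tissue, among 10916 genes. Fosb was kept in the correlations with Dusp1 all the same. Probe sets differ in brightness for reasons other than transcript number, so these percentiles do not rank the transcripts. Jun had 2 probe sets whose deviations from the group means correlated at r = 0.90 across glands and 0.84 across tumours, and the brighter was used.

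Dusp1, the phosphatase that inactivates p38, JNK and ERK, stood out in the heterozygous glands at 4 weeks. In heterozygous glands its log2 level was 8.82, 9.19 and 8.84 at sham, 9.04 and 8.67 at 1 week, and 10.11, 10.17 and 10.10 at 4 weeks. In wild-type glands it was 8.55, 9.26 and 8.76 at sham, 8.76, 8.87 and 8.64 at 1 week, and 8.93, 9.05 and 8.98 at 4 weeks. The 3 heterozygous 4-week arrays were nearly equal and lay above the other 14 glands, with a gap of 0.84 between their lowest and the highest of the rest. The 4-week mean was 10.13 ± 0.04 (SD, n = 3) in heterozygous and 8.99 ± 0.06 (SD, n = 3) in wild-type glands, a difference of 1.14 (SE 0.16), or 2.20-fold. Within heterozygotes, 4 weeks exceeded sham by 1.18 (SE 0.16) and 1 week by 1.27 (SE 0.18). Within wild-type glands the 4-week level exceeded 1 week by 0.23 (SE 0.16) and differed from sham by 0.13 (SE 0.16), and leaving out sham array 1 turned the sham difference to -0.023 whereas leaving out sham array 2 made it 0.33, and the change from sham was larger in heterozygotes by 1.05 (SE 0.23). In these bulk samples more cells of a type and more RNA per cell cannot be told apart.

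Of 10 cell type marker lists, 0 had means that set those 3 arrays apart from the other 14 glands. In the comparisons of these 3 arrays that Dusp1 was described by, however, luminal epithelial marker means separated fully. They were 10.40 to 10.71 in heterozygous 4-week glands, against 10.74 to 11.24 in heterozygous sham, 10.80 to 11.04 in heterozygous 1-week and 10.84 to 11.00 in wild-type 4-week glands. Of the 10 tested luminal markers 8 were lower than in heterozygous sham glands (median -0.45) and 10 were lower than in wild-type 4-week glands (median -0.35). In the comparison with sham 7 of 10 had an unadjusted limma p under 0.05, beside 5.21% of all tested genes. In the comparison with wild-type glands 1 of 10 did, beside 6.16%. In both 0 passed after adjustment, beside 0.0183% of all tested genes. Compared with heterozygous 1-week glands 8 of 10 luminal markers were lower (median -0.34). There 3 of 10 had an unadjusted limma p under 0.05, beside 10.2% of all tested genes, and 0 passed after adjustment, beside 0%. Against wild-type 4-week glands 9 of 9 basal epithelial markers (median -0.34) and 13 of 13 skeletal muscle markers (median -2.21) were lower as well, again with 0 past the threshold. Their part in the result was not tested. Endothelial marker means were 8.05 to 8.42 in heterozygous 4-week glands and 7.82 to 8.51 in the other 14. Skeletal muscle marker means were 4.89 to 5.31 in the same 3 arrays, against 4.41 to 11.43 elsewhere. Without the 4 muscle-rich arrays, 1 wild-type sham array was left, the Dusp1 change from sham was 0.43 in wild-type glands, and the excess in heterozygotes was 0.74. The heterozygous minus wild-type difference at 4 weeks was 1.14 without them and the heterozygous change from sham 1.18.

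**Figure D1:**
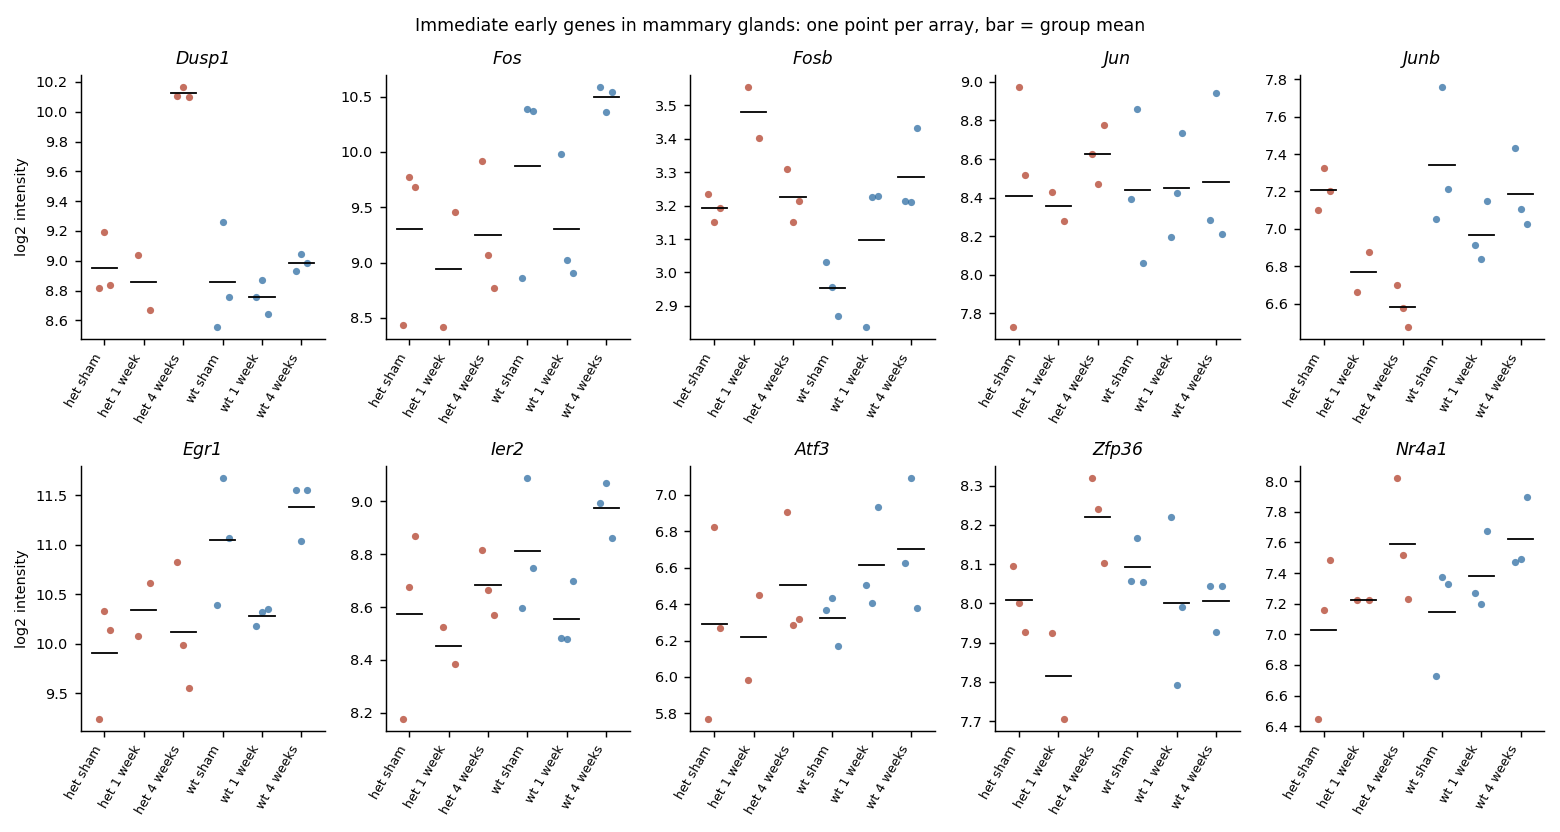
Log2 intensity of each gene in each gland array, heterozygous (red) at the left and wild-type (blue) at the right of each panel, with bars at group means and an axis range of its own in each panel. The 3 heterozygous 4-week arrays of Dusp1 sit at 10.10 to 10.17, above all other glands, and in every other panel they overlap the remaining glands.

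None of the other 8 tested genes separated the heterozygous 4-week arrays from the rest. Among all tested genes, 0.293% had these 3 arrays above the other 14 and 0.147% had them below, and Dusp1 was the 1 member of 9 that did. Ranked by the gap, Dusp1 was followed by Akr1cl with 0.76 and Nap1l5 with 0.68, and Timp4, an inhibitor of matrix metalloproteinases, was at 0.40. This ranking describes the contrast through which Dusp1 was chosen.

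The AP-1 gene Junb was lower in heterozygous glands at 4 weeks. Its log2 level in heterozygous glands was 7.10, 7.32 and 7.20 at sham, 6.66 and 6.88 at 1 week, and 6.70, 6.57 and 6.47 at 4 weeks. In wild-type glands it was 7.05, 7.76 and 7.21 at sham, 6.92, 6.84 and 7.15 at 1 week, and 7.43, 7.11 and 7.03 at 4 weeks. At 4 weeks every heterozygous array lay below every heterozygous sham array and below every wild-type 4-week array, by mean differences of -0.63 (SE 0.17) and -0.61 (SE 0.17).

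Fos and Egr1, which share serum response factor as a regulator, were lower in heterozygous than in wild-type glands at 4 weeks. Fos in heterozygous glands was 8.44, 9.78 and 9.69 at sham, 8.42 and 9.46 at 1 week, and 9.92, 9.07 and 8.77 at 4 weeks. In wild-type glands Fos was 8.86, 10.39 and 10.37 at sham, 9.98, 9.03 and 8.91 at 1 week, and 10.59, 10.36 and 10.54 at 4 weeks. The groups did not overlap at 4 weeks, where the heterozygous minus wild-type difference was -1.24 (SE 0.47), whereas the spread within the earlier groups reached over 1 log2 unit. Egr1 in heterozygous glands was 9.24, 10.33 and 10.14 at sham, 10.08 and 10.61 at 1 week, and 10.82, 9.98 and 9.56 at 4 weeks. In wild-type glands Egr1 was 10.39, 11.67 and 11.06 at sham, 10.18, 10.32 and 10.35 at 1 week, and 11.56, 11.04 and 11.55 at 4 weeks. The 4-week difference for Egr1 was -1.26 (SE 0.36), again without overlap. In the same comparison, which also holds the Junb difference, the luminal (10 of 10), basal (9 of 9) and skeletal muscle markers (13 of 13) were lower in heterozygous glands, and their part in it was not tested. Without the muscle-rich arrays the differences were -1.22 for Fos, -1.18 for Egr1 and -0.69 for Junb. In sham glands the heterozygous minus wild-type difference was -0.57 (SE 0.47) for Fos and -0.13 (SE 0.17) for Junb. For Egr1 it was -1.14 (SE 0.36), and -0.49 without the muscle-rich arrays. The change from sham to 4 weeks differed between genotypes by -0.67 (SE 0.66) for Fos, -0.12 (SE 0.50) for Egr1 and -0.47 (SE 0.24) for Junb. Between 1 and 4 weeks, wild-type glands differed by 1.19 (SE 0.47) in Fos and 1.10 (SE 0.36) in Egr1, both higher at 4 weeks, while heterozygous glands differed by 0.32 (SE 0.52) and -0.22 (SE 0.40).

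The remaining members differed less. Zfp36, which binds AU-rich elements and hastens the decay of cytokine mRNAs, was 8.32, 8.24 and 8.10 in heterozygous 4-week glands, against 8.04, 7.93 and 8.04 in wild-type 4-week glands, a difference of 0.22 (SE 0.11). Ier2, a nuclear protein of the early response, was 8.81, 8.66 and 8.57 in heterozygous 4-week glands, against 8.99, 9.07 and 8.86 in wild-type 4-week glands, a difference of -0.29 (SE 0.16). Neither pair of groups overlapped. Nr4a1, an orphan nuclear receptor, was 8.02, 7.52 and 7.23 in heterozygous and 7.47, 7.49 and 7.90 in wild-type 4-week glands, and the groups overlapped. Nr4a1 at 4 weeks exceeded sham in both genotypes, by 0.56 (SE 0.26) in heterozygous and 0.48 (SE 0.26) in wild-type glands. Jun, the other core AP-1 subunit, and Atf3, a stress-induced member of the ATF family, had overlapping genotypes at 4 weeks and differences of 0.15 (SE 0.29) and -0.20 (SE 0.26). Fosb was dim throughout, from 2.84 to 3.56.

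Counted over the 9 tested genes, heterozygous 4-week arrays lay above all wild-type 4-week arrays in 2 (Dusp1 and Zfp36), where 4.98% of all tested genes did, and below them in 4 (Fos, Junb, Egr1 and Ier2), where 7.78% did. Against heterozygous sham arrays they lay above in 2 (Dusp1 and Zfp36; 6.67% of all genes) and below in 1 (Junb; 5.13%). Against the 2 heterozygous 1-week arrays they lay above in 5 (Dusp1, Jun, Ier2, Zfp36 and Nr4a1; 22.4%) and below in 0 (7.99%). Wild-type 4-week arrays lay above wild-type sham arrays in 1 (Nr4a1; 3.46%) and below them in 1 (Zfp36; 1.91%). They lay above wild-type 1-week arrays in 4 (Dusp1, Fos, Egr1 and Ier2; 10.6%) and below in 0 (3.72%). These comparisons share arrays and belong to the contrasts through which Dusp1 was chosen, so nothing is read from the counts. Averaged over genotypes, 9 of 9 genes were higher at 4 weeks than at 1 week, by 0.017 (Junb) to 0.75 (Fos) with a median of 0.30, beside a median of 0.074 over all tested genes. In heterozygotes alone 7 were higher and 2 lower (Junb at -0.19 and Egr1 at -0.22), with a median of 0.29 beside 0.095 over all tested genes. In wild-type glands 9 were higher, with a median of 0.23 beside 0.058.

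**Figure D2:**
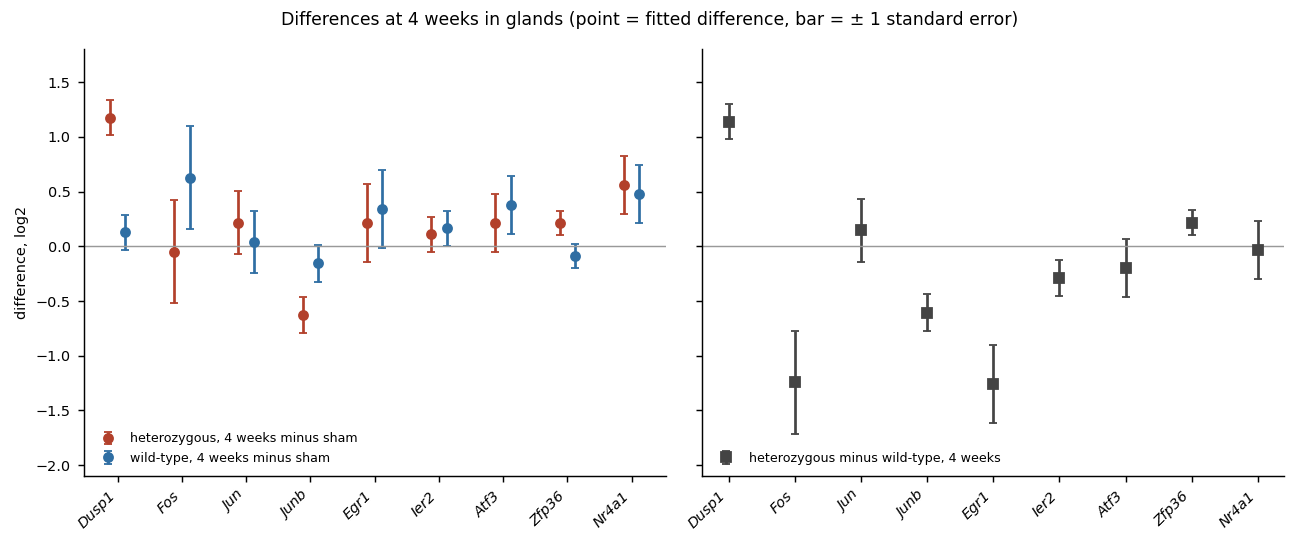
Left, the log2 difference between 4-week and sham glands in heterozygous (red) and wild-type (blue) mice. Right, the heterozygous minus wild-type log2 difference at 4 weeks. Points are limma estimates and bars are 1 standard error either way. In the right panel Dusp1 is at 1.14, Fos at -1.24 and Egr1 at -1.26, and the same difference of Egr1 in sham glands, not shown, was -1.14.

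Contrasts that leave out the 4-week glands could be tested. In glands taken 1 week after 10 cGy, 0 of 9 members passed limma's adjusted p of 0.05 against sham in heterozygotes and 0 of 9 in wild-type mice, as did 0% of all tested genes in both. With an unadjusted limma p under 0.05 there was 1 member of 9 in each, beside 3.44% of all tested genes in heterozygotes and 4.64% in wild-type mice. In both it was Junb, which lay 0.44 lower (SE 0.19) in heterozygotes and 0.38 lower (SE 0.17) in wild-type mice. Their limma adjusted p values were 0.998 and 0.976. Without the muscle-rich arrays the Junb difference in wild-type mice was -0.18. Dusp1 differed between 1 week and sham by -0.09 (SE 0.18) in heterozygotes and -0.10 (SE 0.16) in wild-type mice, with 95% intervals of -0.48 to 0.29 and -0.45 to 0.24. The wild-type sign turned without the muscle-rich arrays. Sham array 1, the only one left, was at 8.55, below 1-week arrays 1 and 2 at 8.76 and 8.87. Groups did not overlap for Junb and Zfp36 in heterozygotes, both lower at 1 week (12% of all genes were lower and 3.54% higher without overlap), and for Egr1 in wild-type mice, lower at 1 week (6.43% lower and 3.35% higher). That Egr1 difference was -0.76 (SE 0.36) and was -0.14 without the muscle-rich arrays and -0.44 without wild-type sham array 2, and 13 of 13 muscle markers were lower at 1 week (median -2.21).

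Between genotypes, 0 of 9 members passed in sham glands and 0 of 9 at 1 week, again with 0% of all tested genes. Egr1 was lower in heterozygous than wild-type sham glands by a difference of -1.14 (SE 0.36), unadjusted limma p = 0.0063 and adjusted p = 0.968. It was the 1 member of 9 with an unadjusted p under 0.05, beside 3.36% of all tested genes. It was also the 1 member whose sham groups did not overlap, where 4.33% of all genes were lower and 2.97% higher in heterozygotes. Without the muscle-rich arrays this difference was -0.49, and 13 of 13 muscle markers were lower in heterozygous sham glands (median -2.88). At 1 week 0 members had an unadjusted limma p under 0.05, beside 7.63% of all tested genes. None separated the genotypes, where 13.9% of all genes were lower and 8.67% higher in heterozygotes. The change from sham to 1 week differed between genotypes in 0 of 9 members after adjustment (0% of all genes), Egr1 being nearest with an excess of 1.20 (SE 0.53) in heterozygotes and an unadjusted limma p = 0.041.

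Array by array, deviations from group means show whether the genes move together when group differences are set aside. Among glands the other 8 genes without Fosb had a median r of 0.46 over their 28 pairs. The 3 negative pairs were all of Zfp36, whose r with the other 7 ran from -0.26 (Jun) to 0.21 (Junb). Egr1 and Nr4a1 reached r = 0.82, Fos and Egr1 0.81, Ier2 and Nr4a1 0.78, and Jun and Atf3 0.76. The r of Dusp1 with the others over 17 glands was 0.53 for Jun, 0.50 for Ier2, 0.46 for Junb, 0.43 for Egr1, 0.31 for Fos, 0.25 for Nr4a1, 0.19 for Zfp36, 0.14 for Atf3 and -0.03 for Fosb. None of these passed a within-group permutation test adjusted over 18 relations (9 genes in 2 tissues), the smallest adjusted p being 0.459 for Jun. Spearman's rho ran from -0.02 (Fosb) to 0.43 (Jun), with a smallest adjusted permutation p of 0.609. Without the 2 glands farthest from the median of Dusp1, both wild-type sham arrays (at 9.26 and 8.55), r was -0.25 for Junb, -0.02 for Fos, 0.04 for Egr1, -0.00076 for Nr4a1, 0.05 for Zfp36 and 0.19 for Ier2, and it was 0.47 for Jun and 0.14 for Atf3. The gland values for Junb, Fos, Egr1, Nr4a1, Zfp36 and much of that for Ier2 thus rest on those 2 arrays.

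In tumours the pattern differed. There the 28 pairs of the other 8 genes had a median r of 0.31, led by Fos and Zfp36 at 0.66, while 6 of the 9 correlations with Dusp1 were negative, with a median of -0.16. Nr4a1 was lower where Dusp1 was higher (r = -0.57, rho = -0.64, 48 tumours), with an adjusted permutation p of 0.0009 for r and 0.00018 for rho. Without the 2 tumours farthest from the median of Dusp1, a tumour of a sham and one of an irradiated wild-type host (12.36 and 11.52), it was -0.52 with an adjusted p of 0.0026. Atf3 had r = -0.40 (adjusted permutation p = 0.0277) and rho = -0.38 (0.0602), and -0.53 without the same 2 tumours. Jun was the highest at r = 0.37 (adjusted p = 0.122), and rho was 0.38 (0.0602). Ier2 had r = -0.25 (adjusted p = 0.412) and rho = -0.36 (0.0679), and r reached -0.51 with an adjusted p of 0.0026 without the 2 tumours. Egr1 had r = -0.20, Zfp36 -0.16, Junb 0.15, Fosb 0.10 and Fos -0.0050, all with adjusted p values from 0.50 to 0.97. Values of this size were common, as r with Dusp1 over all tested genes in tumours had 5th and 95th percentiles of -0.60 and 0.63. The r of Nr4a1 was higher than that of 6.51% of these genes, and the r of Atf3 higher than that of 18.0%.

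**Figure D3:**
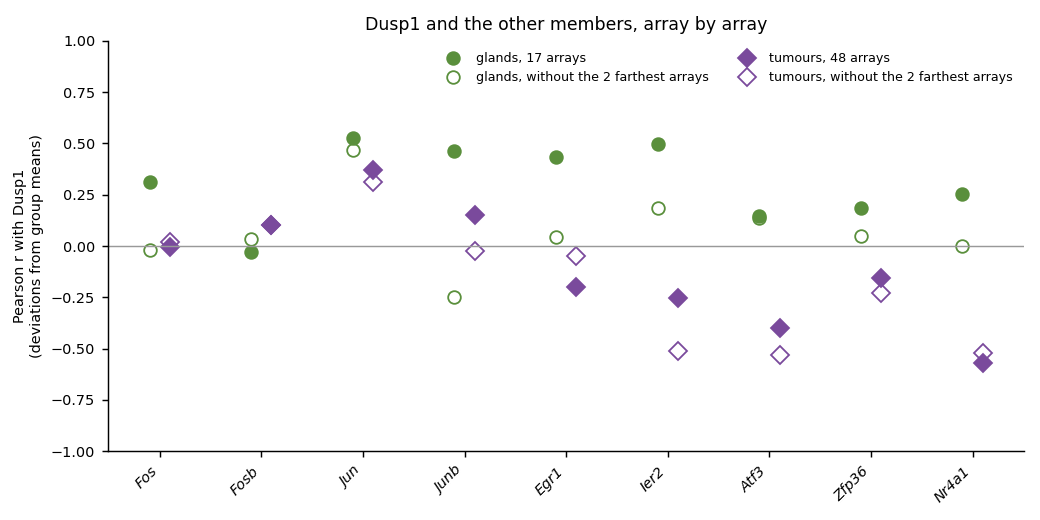
Pearson correlation of each gene with Dusp1 over deviations from group means, in 17 glands (green circles) and 48 tumours (purple diamonds). Open symbols leave out the 2 arrays farthest from the median of Dusp1, and the tumour values of Nr4a1 (-0.57) and Atf3 (-0.40) are the filled symbols that passed the adjusted test.

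Markers of other cell types moved with Dusp1 in the tumours. The mean of 8 endothelial markers, among them Pecam1, Cdh5 and Kdr, correlated with Dusp1 at r = 0.84 (rho = 0.85) and at 0.79 without the 2 farthest tumours, and the mean of the fibroblast markers at 0.70 (rho = 0.67). Luminal epithelial markers had r = -0.57 (rho = -0.34). Some immune and blood lists passed too, with r = 0.55 for T cell (adjusted permutation p = 0.0017), 0.46 for macrophage (0.00528) and 0.52 for red blood cell markers (0.0201). The red blood cell r was 0.30 without the 2 farthest tumours, and its rho of 0.34 did not pass (0.0701). The B cell and lymph node list did not pass (r = 0.31, adjusted permutation p = 0.0997). Nr4a1 had the opposite signs, at -0.49 with the endothelial, -0.63 with the fibroblast and 0.51 with the luminal list, and it also passed with the skeletal muscle (-0.59, adjusted p = 0.0005) and T cell lists (-0.51, 0.0017). The 6 values with the endothelial, fibroblast and luminal lists had adjusted permutation p values of 0.00427 or less over 40 relations, chosen after the data were seen, and rho of the luminal list had 0.0701 with Dusp1 and 0.123 with Nr4a1. With the luminal and fibroblast means as covariates, the r of Dusp1 was -0.16 with Nr4a1 (adjusted permutation p = 0.538), 0.08 with Atf3 (0.637) and 0.50 with Jun (0.0225). With the endothelial mean as covariate it was -0.33 with Nr4a1 (0.156) and -0.39 with Atf3 (0.0947). Among the 38 tumours with a luminal mean of 10 or more it was -0.58 with Nr4a1 (0.0191), -0.33 with Atf3 (0.267) and 0.37 with Jun (0.267). Among glands none of the 10 marker lists passed with Dusp1, the smallest adjusted permutation p being 0.254 for fibroblasts (r = 0.54, and 0.15 without the 2 farthest glands).

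**Figure D4:**
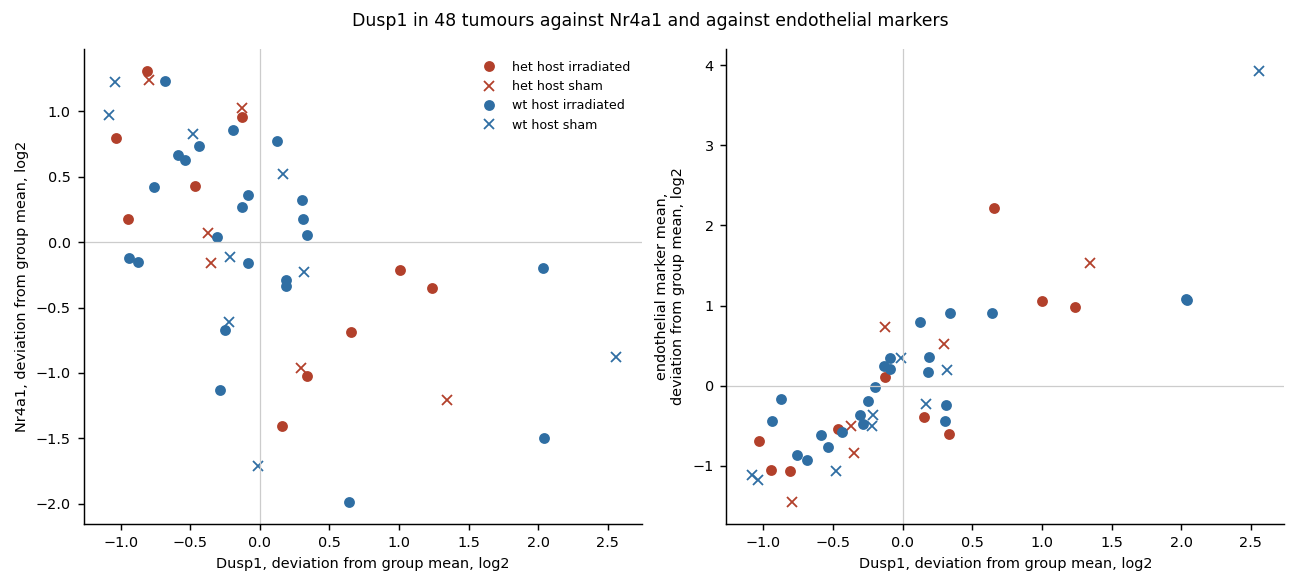
Deviations from group means in 48 tumours, Dusp1 on the horizontal axis against Nr4a1 (left) and against the mean of 8 endothelial markers (right), in log2 units, with heterozygous hosts in red and wild-type hosts in blue, irradiated as circles and sham as crosses. Nr4a1 falls away as Dusp1 increases (r = -0.57) and the endothelial mean increases with it (r = 0.84).

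The genes most like Dusp1 over the deviations were other than its fellow members. In tumours the 10 nearest of 10915 tested genes had r of 0.86 to 0.88 and were Ptprm, Sparc, Calcrl, Thbd, Adcy3, Rasgrp3, Adam19, S1pr1, Cd34 and Fkbp7, where Thbd (thrombomodulin), S1pr1 (a sphingosine phosphate receptor), Calcrl and Cd34 are known from endothelium and Sparc from matrix-producing stroma. In glands the nearest were Gcc1 (0.91), Ift122 (0.90), Rnf114 (0.89), Dexi (0.88), Stbd1 (0.86), Tbc1d17, Ldb3, Lrrc28, Smpd2 and Slc8b1 (0.81 to 0.82). The r of Jun with Dusp1 was higher than that of 94.6% of tested genes in glands and 82.8% in tumours, and the r of Nr4a1 was higher than 6.51% in tumours. Nearest to Fos were Zfp507, Pcdh12, Ccdc186, Slc41a1 and Fbxo38 in glands (0.90 to 0.92). In tumours they were 2210407C18Rik (0.67), the member Zfp36 (0.66), Ctns (0.65), Fam160a2 (0.62) and Osbpl10 (0.60). With 17 glands, values of this size are the extremes of a wide distribution whose 5th and 95th percentiles were -0.39 and 0.53 for Dusp1.

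Across the 4 tumour groups the members overlapped. Dusp1 ran from 9.11 to 11.38 (median 10.16) with irradiated and from 9.03 to 11.17 (median 9.59) with sham heterozygous hosts, and from 8.54 to 11.52 (median 9.35) with irradiated and from 8.72 to 12.36 (median 9.59) with sham wild-type hosts. The groups overlapped over most of their range. The irradiated heterozygous hosts exceeded the irradiated wild-type hosts by 0.66 (SE 0.31), with an unadjusted limma p = 0.0382 and an adjusted p of 0.925. Endothelial marker means in those groups were 6.99 to 10.26 (median 7.58) and 6.45 to 8.46 (median 7.21), and their part in the difference was not tested. Irradiated minus sham differences of Dusp1 were 0.31 (SE 0.42) in heterozygous hosts and -0.32 (SE 0.32) in wild-type hosts, and their difference was 0.64 (SE 0.53, limma adjusted p = 0.99968).

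Fos, in the same order of groups, ran from 10.40 to 12.20 (median 10.88), from 9.67 to 11.66 (10.37), from 9.40 to 11.46 (10.69) and from 9.72 to 11.30 (10.73), and its irradiated minus sham difference was 0.48 (SE 0.28) in heterozygous and 0.05 (SE 0.21) in wild-type hosts. Jun had medians of 10.28, 10.62, 10.19 and 10.48, and irradiated minus sham differences of -0.08 (SE 0.22) and -0.29 (SE 0.17). Nr4a1 had medians of 9.99, 9.95, 10.18 and 10.16 with group SDs of 0.77 to 1.00. In each of the 5 tumour comparisons 0 of 9 members passed limma, as did 0% of all tested genes. With an unadjusted limma p under 0.05 there was 1 member (Dusp1) between irradiated hosts, beside 5.32% of all tested genes. In the other 4 comparisons there were 0 members, beside 4.05% to 6.59% of all tested genes. The smallest adjusted p of a member was 0.784, for Jun in wild-type hosts.

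**Figure D5:**
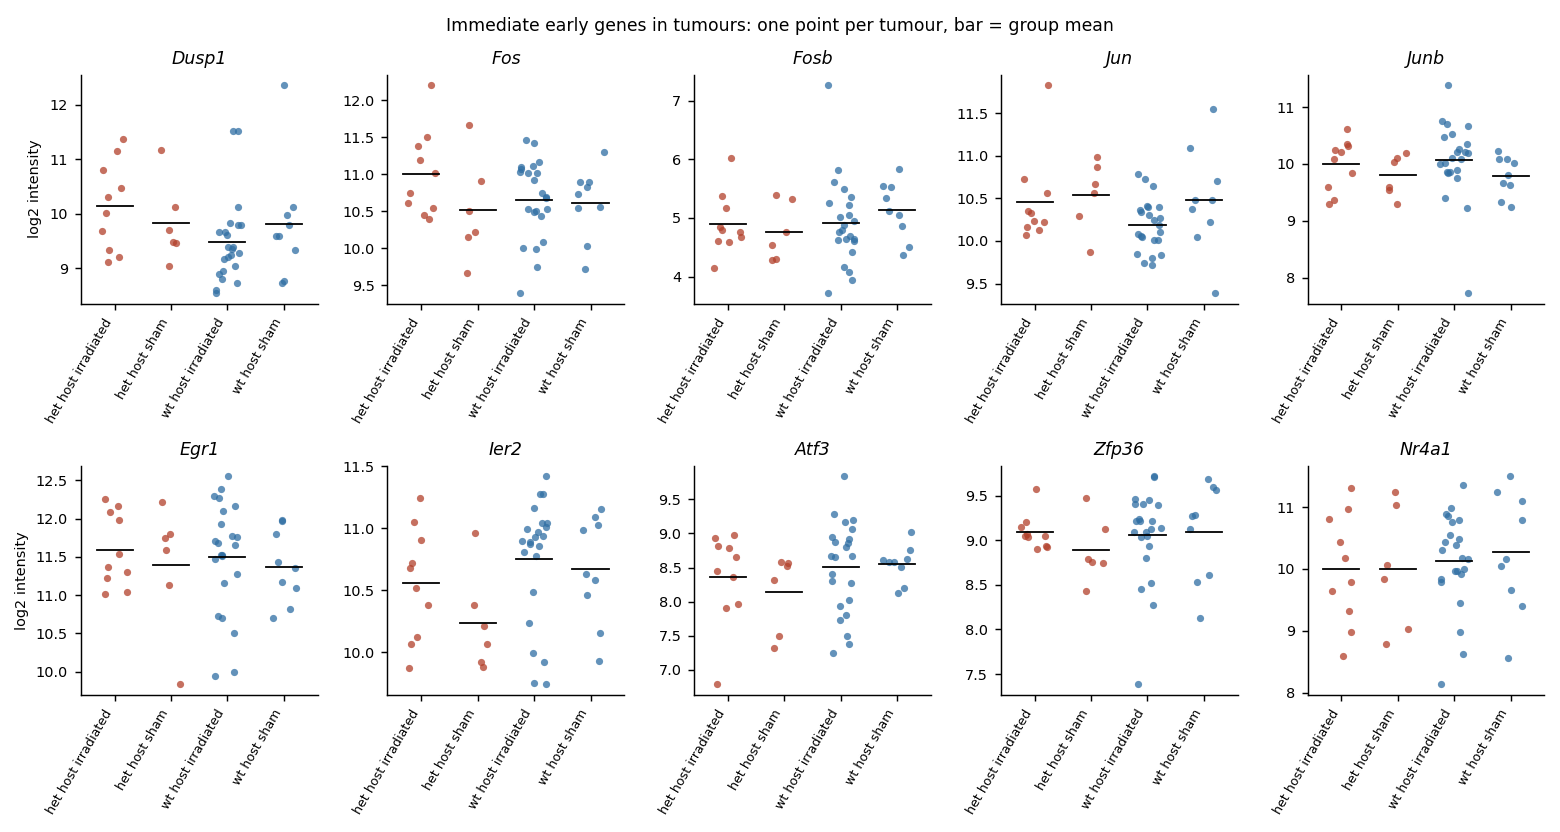
Log2 intensity of each gene in each tumour, by host, from left to right irradiated heterozygous, sham heterozygous, irradiated wild-type and sham wild-type, with bars at group means. The 4 groups overlap in every panel, and the highest Dusp1 value, 12.36, belongs to a sham-treated wild-type host.

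Other immediate early genes, taken from a list of 34 that did not include the members, gave 0 genes past the threshold in either direction in any comparison of either tissue. At 4 weeks heterozygous glands were higher than sham glands in 9 and lower in 19 of the 28 tested, with a median of -0.10 (all genes 0.021) and 0.0183% of all genes passing. The 2 with the smallest p were Socs3, a feedback inhibitor of cytokine signalling, at -0.98 (SE 0.25) and Errfi1, a feedback inhibitor of the EGF receptor, at 0.80 (SE 0.23), which is also on the glucocorticoid list described further on. Against wild-type 4-week glands heterozygous glands were higher in 10 and lower in 18, with Egr3 at -1.28 (SE 0.45) and Jund at -0.36 (SE 0.13) having the smallest p. Of the 14 genes of the MAP kinase phosphatase and feedback list, 12 were tested in glands and 0 passed. Heterozygous 4-week glands were higher than wild-type 4-week glands in 4 of them and lower in 8, with Dusp16 at -0.47 (SE 0.19) and Dusp6, the ERK phosphatase, at -0.52 (SE 0.27) nearest. Of the 15 tested upstream kinases and transcription factors 0 passed, and Srf, serum response factor itself, was nearest at -0.31 (SE 0.14) between genotypes at 4 weeks. Of the 13 heat shock and stress genes 0 passed, and Ddit4 was nearest there at 1.00 (SE 0.30).

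Dusp1 is also induced by glucocorticoids, as background, and a list of 15 other glucocorticoid-responsive genes was followed for that reason. At 4 weeks heterozygous glands were higher than wild-type glands in 14 of 15 and lower in 1, with a median of 0.26 beside -0.0084 for all genes, and 0 of 15 passed (0.0183% of all genes). The mean over the list was 9.21 to 9.30 in the heterozygous 4-week arrays and 8.83 to 9.20 in the other 14 glands, a gap of only 0.0036 between the nearest arrays. The nearest were Tsc22d3, which encodes the glucocorticoid-induced leucine zipper, at 0.76 (SE 0.20) and the clock gene Per1 at 0.67 (SE 0.22). Against heterozygous sham glands 9 of 15 were higher and 6 lower, and Tsc22d3 differed by 0.70 (SE 0.20). These 4-week comparisons belong to the contrasts through which Dusp1 was chosen. In wild-type glands Tsc22d3 and Per1 were higher at 1 week than at sham, by 0.84 (SE 0.20) and 0.80 (SE 0.22, limma adjusted p = 0.976 for both). Dusp1 differed there by -0.10 (SE 0.16), and its sign turned without the muscle-rich arrays. In tumours 14 of the genes were tested and 0 passed. Between irradiated hosts 11 were higher and 3 lower with heterozygous hosts, where Dusp1 differed by 0.66. Between sham hosts 6 were higher and 8 lower. For irradiated minus sham, 8 were higher and 6 lower in heterozygous hosts, and 3 were higher and 11 lower in wild-type hosts. An unadjusted limma p under 0.05 was seen for 2 between irradiated hosts (5.32% of all tested genes), 1 between sham hosts (5.16%), 0 in heterozygous hosts (4.05%) and 4 in wild-type hosts (6.59%). Whether glucocorticoids had a part in any of these differences was not tested.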

How the data were processed

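Expression was measured on Affymetrix arrays in 17 glands and 48 tumours. The deposited gland values are linear intensities and the deposited tumour values are log2, both made by the authors with RMA, per the submitters' processing notes, its version not given in the sources used here. The gland intensities were converted to log2, and the tissues were never compared with each other in level. Array number, not read depth, limits the precision, and nothing states that gland repeats came from separate animals, so p-values measure only the spread between these samples.

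Of 45101 probe sets, 34958 had 1 gene, 932 several and 9211 none in the platform annotation, and 99.4% of gene IDs matched the RefSeq names (GRCm38.p6). A gene was its brightest single-gene probe set, and genes under the 40th percentile of mean level (5.33 in glands, 6.19 in tumours) were set aside. limma 3.58.1 in R 4.3.3 (lmFit, eBayes with trend) fitted 1 mean per group in each tissue, with two-sided tests, Benjamini-Hochberg adjustment over all tested genes and a threshold of 0.05. Correlations used deviations from group means and 100000 two-sided permutations within groups (Python 3.11.15, numpy 2.4.6, scipy 1.17.1), adjusted over 18 relations, and those with marker means, added after the data were seen, over 40. The fits were tested on simulated data.

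The members and lists were chosen with earlier results of these data known. Text names all members, the 2 listed genes with the smallest p in a comparison where none passed, and the genes most like Dusp1 (10) and Fos (5); Akr1cl, Nap1l5 and Timp4 were named after their values were seen. Same-numbered samples did not deviate together (r from -0.53 to 0.40 in glands, over 0.1 in 16 of 40 pairs, and over 0.1 in 12 of 32 in tumours), so numbers were not treated as pairs. Alternatives covered normalization, probe sets, filters, trend, a pseudocount, covariates, the replicate block and arrays left out.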

Additional observations from a re-analysis of the deposited data

Results flagged for a closer look

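An array far from the others was looked for in 30 sets of tumour values, each of 1 gene in a group of 6, 9 or 10 tumours. The group of 23 tumours from irradiated wild-type hosts was not checked. Of the 30 sets 4 had an array set apart, and chance sets apart about 1 in 20. Dusp1 was 12.364 in 1 tumour of a sham-treated wild-type host, whose group next reached 10.12, and the same tumour had an endothelial marker mean of 11.67. Jun was 11.8307 in 1 tumour of an irradiated heterozygous host, against 10.73 in the next of its group. Atf3 was 6.78351 in another tumour of that group, where the next lowest was 7.91, and Zfp36 was 9.57912 in 1 more tumour of that group, where the next highest was 9.20.

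Egr1 differed with opposite signs between 1 week and sham, by 0.440151 in heterozygous and -0.759789 in wild-type glands. The difference between these changes was 1.20 (SE 0.53, unadjusted limma p = 0.041, adjusted p = 0.999766), and it was 0.58 without the 4 muscle-rich wild-type arrays. Zfp36 at 4 weeks lay above every sham array in heterozygous glands (0.212395) and below every sham array in wild-type glands (-0.0874938), and this difference was not tested.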

How the results depend on the processing

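All 175 recomputed counts of members past the threshold were 0. Of 463 recomputed differences 461 stayed on their side of the threshold with the same sign where they were tested, or within the SD of single arrays in a group where they were only described. Within these limits Egr1 moved most, to -0.49 (-1.14 with all arrays) between heterozygous and wild-type sham glands and to -0.14 (-0.76 with all arrays) between wild-type 1-week and sham glands without the muscle-rich arrays. The other 2 also came without those arrays, where Dusp1 differed between 4 weeks and sham by 0.43 in wild-type glands and the heterozygous excess was 0.74. The replicate block changed no call of a member, with Dusp1 at 1.18 between 4 weeks and sham in heterozygous glands and at 1.01 (adjusted p = 0.604) between irradiated hosts. Of 333 recomputed correlations with Dusp1, 289 kept their sign and side of the threshold, 36 turned sign, 3 passed newly and 5 kept their sign and no longer passed (6 lost the threshold in all, 1 of them with its sign turned), and the cause was not tested. Fosb is counted here although it lay under the level filter. Its r in glands was only -0.03 with all arrays, so a turn of its sign says little. Settings with marker covariates or with arrays left out for their marker means were chosen after the data were seen.

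In glands without the 2 farthest arrays, r was -0.019 for Fos, 0.033 for Fosb, -0.25 for Junb and -0.00076 for Nr4a1. With group means kept in, it was -0.055 for Fos, 0.12 for Fosb, -0.49 for Junb and -0.14 for Egr1. Quantile normalization gave 0.027 for Fosb, and the replicate block 0.079 for Fosb and -0.0569 for Atf3. Without the muscle-rich arrays it was -0.12 for Fos, 0.22 for Fosb and -0.14 for Junb, and without the lymph-node-rich arrays -0.29 for Fos, 0.27 for Fosb and -0.24 for Nr4a1. The endothelial covariate gave 0.21 for Fosb, and the luminal and fibroblast covariates -0.16 for Atf3. Leaving out each gland in turn gave -0.0094 to 0.51 for Fos, -0.15 to 0.12 for Fosb, -0.16 to 0.60 for Junb and -0.14 to 0.29 for Atf3.

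In tumours without the 2 farthest arrays, r was 0.018 for Fos, -0.022 for Junb and -0.51 for Ier2, the last now passing. Spearman's rho was 0.085 for Fos and -0.38 for Atf3, which no longer passed. With group means kept in, r was 0.055 for Fos and 0.42 for Jun, which then passed. The luminal and fibroblast covariates gave 0.36 for Fos, 0.50 for Jun (passing), 0.11 for Ier2, 0.085 for Atf3, 0.32 for Zfp36 and -0.16 for Nr4a1. The endothelial covariate gave -0.20 for Fosb, -0.39 for Atf3 and -0.33 for Nr4a1. Without the 10 tumours low in luminal markers it was 0.23 for Fos, 0.11 for Egr1 and -0.33 for Atf3.

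Over all genes, calls were 2 between heterozygous 4-week and sham glands (0 to 5 over the alternatives) and 2 between heterozygous and wild-type glands at 4 weeks (0 to 6, the most with the replicate block). Without 1 of the 2 heterozygous 1-week arrays, there were 19 calls for heterozygous 4 weeks minus 1 week and 18 for the genotype average, against 0 in both with all arrays, and the remaining array was assumed to vary like the other groups.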
